A study of Mus musculus with 44 samples.

Results

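The comparison is the step from 48 h to 72 h in a culture series that took multipotent mouse blood progenitors toward the B lineage. It covers 6 of the 44 libraries, 3 at 48 h and 3 at 72 h, chosen by their labelled time point. All 44 libraries came from C57BL/6J fetal liver induced leukocyte stem (iLS) cells, which carry Id3-ERT2, the Id3 protein joined to a receptor domain that responds to 4-hydroxytamoxifen (4-OHT). Before 0 h the cells grew on TSt-4 feeder cells, a stromal line, in IMDM with IL-7 at 20 ng/mL, SCF and Flt-3L at 10 ng/mL each and 4-OHT at 40 nM. From 0 h on they stayed on TSt-4 cells in IMDM with IL-7 at 5 ng/mL and without 4-OHT. Both groups shared genotype, feeder and medium, and differed in time since that change. The series as a whole has 16 time points, 14 of them with 3 libraries. Whether replicates were separate cultures, whether the iLS cells were 1 clone and whether feeder cells were removed before RNA isolation are not given in the sources used here, so a p-value here reflects library-to-library spread, which may be technical.

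B-cell development starts when the E proteins, of which E2A from Tcf3 is one, bind E-box sequences in DNA. Id proteins pair with E proteins and keep them from DNA, which is how an Id3 fusion can hold progenitors undecided. E2A and Foxo1 act upstream of Ebf1, and Ebf1 acts upstream of Pax5, the factor that commits a cell to the B lineage. Their targets include Igll1, Vpreb1 and Vpreb2, which encode the surrogate light chain of the pre-B receptor, Cd79a and Cd79b, its signalling chains, and Blnk, the adaptor that carries its signal. Rag1 and Rag2 encode the recombinase that joins antigen receptor gene segments.

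Promoter sequences are shown for 5 of these B-lineage genes, because their libraries lay apart between 48 h and 72 h (values below) and because each carries an E-box of the letters CAGGTG, and for Slc37a1, a gene that rose in the step and also carries one. Each line gives the 250 bases before the start of the gene, 5′ to 3′ on the gene's own strand, from the RefSeq promoter table of build GRCm38.p6. Capitals mark the E-boxes CAGGTG and CAGCTG and the EBF1 core CCCNNGGG, searched on both strands, so that CACCTG is CAGGTG read on the other strand.
Igll1: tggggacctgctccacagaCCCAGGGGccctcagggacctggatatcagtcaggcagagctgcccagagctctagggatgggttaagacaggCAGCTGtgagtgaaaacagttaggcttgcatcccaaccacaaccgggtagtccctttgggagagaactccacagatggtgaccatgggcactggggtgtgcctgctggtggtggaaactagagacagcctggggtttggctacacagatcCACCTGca
Vpreb1: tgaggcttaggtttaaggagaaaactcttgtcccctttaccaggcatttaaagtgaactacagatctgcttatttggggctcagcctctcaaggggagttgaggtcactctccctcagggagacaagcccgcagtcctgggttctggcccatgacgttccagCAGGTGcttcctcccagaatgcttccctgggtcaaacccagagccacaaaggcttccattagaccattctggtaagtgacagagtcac
Cd79a: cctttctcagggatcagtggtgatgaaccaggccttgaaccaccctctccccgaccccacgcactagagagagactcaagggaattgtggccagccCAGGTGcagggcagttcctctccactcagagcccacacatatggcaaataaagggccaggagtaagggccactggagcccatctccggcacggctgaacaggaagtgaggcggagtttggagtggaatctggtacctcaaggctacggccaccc
Blnk: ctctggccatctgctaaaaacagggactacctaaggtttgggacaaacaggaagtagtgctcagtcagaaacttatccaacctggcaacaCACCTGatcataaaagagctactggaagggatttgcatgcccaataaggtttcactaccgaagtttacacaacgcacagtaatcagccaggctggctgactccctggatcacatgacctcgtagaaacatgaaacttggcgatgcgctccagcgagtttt
Rag1: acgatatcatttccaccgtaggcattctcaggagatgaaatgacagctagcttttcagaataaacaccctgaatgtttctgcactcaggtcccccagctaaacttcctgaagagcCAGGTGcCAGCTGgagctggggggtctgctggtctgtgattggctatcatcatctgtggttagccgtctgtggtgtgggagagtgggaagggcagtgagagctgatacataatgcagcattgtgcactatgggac
Slc37a1: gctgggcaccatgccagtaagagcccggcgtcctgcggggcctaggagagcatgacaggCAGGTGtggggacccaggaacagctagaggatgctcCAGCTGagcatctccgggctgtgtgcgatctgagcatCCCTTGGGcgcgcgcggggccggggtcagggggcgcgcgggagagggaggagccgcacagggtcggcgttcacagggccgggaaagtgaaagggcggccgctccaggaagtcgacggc

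These windows lie at chr16:16863986-16864235 for Igll1, chr16:16869256-16869505 for Vpreb1, chr7:24897247-24897496 for Cd79a, chr19:40994222-40994471 for Blnk, chr2:101649533-101649782 for Rag1 and chr17:31295974-31296223 for Slc37a1. Cd79a and Slc37a1 are on the plus strand and the other four on the minus strand. Igll1 and Vpreb1 are neighbours on chromosome 16, with 5270 bases between their starts. The Igll1 window holds 1 copy of each of the 3 motifs, and its CAGGTG match ends at position -3, counted back from the start. In the Rag1 window the CAGGTG and CAGCTG boxes stand 1 base apart, from position -135 to -123. Of the 20 genes of the list of surrogate light chain and B-cell surface genes, 14 had a promoter in the table, and 8 of those (57.1%) held CAGGTG: Igll1, Vpreb1, Vpreb2, Cd79a, Cd22, Cr2, Fcrla and Cd37. It was in 1 of 18 promoters of the B-lineage transcription factor list (5.56%), in 4 of 15 of the general blood-cell list (26.7%) and in 1 of 14 of the stromal feeder list (7.14%). CAGGTG was found in 17.1% of all 27025 promoters and in 14.8% of the 10899 promoters of tested genes. It was in 17.2% of the 961 promoters whose genes were higher in all 72 h libraries than in any 48 h library, and in 10.7% of the 754 whose genes were lower. CAGCTG was in 12.8% of all promoters and CCCNNGGG in 11.7%, and each was in 2 of the 14. Other motifs searched in the same windows were TGTTTAC (FOXO), GAGGAAGT (PU.1), TGGGAA (the Ikaros core), TGACGTCA (CRE) and TGAGTCA (AP-1), found in 0, 2, 5, 0 and 0 of the 14 and in 3.09, 2.44, 21.5, 1.62 and 4.43% of all promoters. The windows of Pax5, Ebf1, Vpreb3, Atp1b1, Mreg and Atp5sl held none of the 3 motifs. That of Slc25a24, a gene that fell in the step, held 1 CAGCTG. Of the 5 genes called higher, 4 had a promoter in the table, and CAGGTG was in 1 of them, Slc37a1. A match is a description of the letters and does not show binding. Vpreb1 and Vpreb2, near-identical gene copies, both count among the 8 of 14. The lists were chosen with earlier results of these data known.

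The 6 libraries were alike in the measures of quality that an FPKM table allows. FPKM is a fragment count divided by transcript length and by the library's total. Summed FPKM ran from 592752 to 682274, the number of genes at 1 FPKM or more from 12105 to 12316, and the share of small RNA genes from 12.9 to 20.4%. The depth itself is unknown, but the spacing of low values put the relative depth of the 6 libraries between 0.921 and 1.11. Correlation of log2(FPKM + 1) across genes was 0.928 to 0.944 among 48 h libraries, 0.893 to 0.929 among 72 h libraries and 0.887 to 0.925 between them, so the time points overlapped on this measure (genes are not independent). Replicates 1, 2 and 3 of both time points fall in 3 separate runs of consecutive library codes. What the codes stand for is not given, and differences within each run are printed beside the results.

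In the fit without a block for replicate number or library-code run, few genes passed the test across the step. When limma was fitted to log2(FPKM + 1) over the 42 libraries with replicates, 6 of 13907 genes tested (0.0431%) had a Benjamini-Hochberg adjusted p under 0.05 for 72 h against 48 h, 5 higher (0.036%) and 1 lower (0.00719%). At an unadjusted p under 0.05 there were 1580 genes (11.4%), 936 higher (6.73%) and 644 lower (4.63%). The count of 6 depended on single libraries: it was 14 without 48 h replicate 1, 2 and 3 without 48 h replicates 2 and 3, 3 without 72 h replicate 1, 0 without 72 h replicate 2 and 7 without 72 h replicate 3. It was 0 with a pseudocount of 0.1 and 41 with one of 5. With a block by library-code run in all libraries it was 144. A block by replicate number gave 24 in the 12 libraries of 48 h to 144 h and 54 in the 6 libraries alone (see the closing section). How many of the called genes were higher depended on the scaling: the share was 83.3% as deposited, 63.2% of 19 genes after quantile normalization, 100% of 4 genes after median-ratio scaling, 100% of 3 genes with small RNA genes removed and 2.25% of 666 genes with each library scaled to general blood-cell genes. That last scaling shifted the median of all genes by -0.60 on the log2 scale. A gene's libraries are called apart below when all 3 at 72 h lay on one side of all 3 at 48 h, which held for 8.69% of tested genes in the higher direction and 6.92% in the lower.

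The genes that rose were Atp1b1, Ctse, Atp5sl, Slc37a1 and Mreg, and Slc25a24 fell. Atp1b1 encodes the beta subunit of the sodium pump. Its level was 1.76, 1.98 and 2.03 FPKM in replicates 1, 2 and 3 at 48 h and 7.41, 11.5 and 8.43 FPKM at 72 h. The lowest 72 h library was above every 48 h library several times over, and the 48 h libraries were close together. The mean rose 4.73-fold, from 1.92 ± 0.140 to 9.11 ± 2.12 FPKM (SD, n = 3), a difference of 1.77 ± 0.28 (SE) in log2(FPKM + 1) with an adjusted p of 0.00453 by limma. The differences within runs were 1.60, 2.07 and 1.64. Leaving out 72 h replicate 2 gave a limma adjusted p of 0.0629, and leaving out any other one of the 6 libraries kept it under 0.05.

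Ctse encodes cathepsin E, an aspartic protease of endosomes. It stood at 0.409, 1.15 and 0 FPKM at 48 h and at 10.2, 7.39 and 2.22 FPKM at 72 h. Every 72 h library was above every 48 h library, replicate 3 was the lowest at both times, and at 48 h that library was listed at 0. The difference was 2.21 ± 0.36 (log2, SE; limma adjusted p = 0.00453), and within runs it was 2.99, 1.97 and 1.69. The limma adjusted p was 0.0834 without 48 h replicate 3, 0.0729 without 72 h replicate 1 and 0.0629 without 72 h replicate 2.

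Atp5sl, listed by RefSeq as Dmac2, encodes a mitochondrial protein that takes part in assembly of complex I of the respiratory chain. Its FPKM values were 5.73, 5.36 and 3.77 at 48 h and 13.6, 10.7 and 10.1 at 72 h. The highest 48 h library was well below the lowest 72 h library, and the mean rose 2.31-fold (1.07 ± 0.20 on the log2 scale, SE; limma adjusted p = 0.0326). Within runs the differences were 1.12, 0.88 and 1.22. The limma adjusted p was 0.0591 and 0.354 without 48 h replicates 2 and 3, and 0.155 and 0.0629 without 72 h replicates 1 and 2. With libraries scaled to the blood-cell genes the difference was 0.44 (adjusted p = 0.18).

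Slc37a1, a sugar-phosphate transporter of the endoplasmic reticulum, was at 0.746, 0.269 and 0.275 FPKM at 48 h and 3.57, 2.83 and 2.16 FPKM at 72 h. All 48 h values were under 1 FPKM and all 72 h values over 2. The difference was 1.43 ± 0.27 (log2, SE; limma adjusted p = 0.0326), with 1.39, 1.59 and 1.31 within runs. Mreg, which encodes melanoregulin, a membrane-trafficking protein, was at 3.08, 1.28 and 0.982 FPKM at 48 h and 8.55, 7.42 and 5.20 FPKM at 72 h. Replicate 1 was the highest and replicate 3 the lowest at both times, and no 48 h library reached the lowest at 72 h. Its difference was 1.59 ± 0.32 (log2, SE; limma adjusted p = 0.0491), and 1.23, 1.89 and 1.64 within runs. Both genes lost their call without 48 h replicate 2 or 3 or 72 h replicate 1 or 2: the limma adjusted p was then 0.0684, 0.229, 0.155 and 0.09 for Slc37a1 and 0.0842, 0.372, 0.174 and 0.127 for Mreg.

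Slc25a24 encodes a carrier that exchanges ATP-magnesium for phosphate across the inner mitochondrial membrane. It was the gene that fell. Its values were 19.7, 18.2 and 18.1 FPKM at 48 h and 9.60, 10.9 and 8.82 FPKM at 72 h. All 48 h libraries were within 2 FPKM of each other, and the highest 72 h library was well below them. The mean at 72 h was 0.523 of that at 48 h, a log2 difference of -0.87 ± 0.17 (SE; limma adjusted p = 0.0484), with -0.97, -0.69 and -0.96 within runs. Leaving out any one of the 6 libraries raised the limma adjusted p above 0.05, to between 0.0629 and 0.183. The 6 genes kept their sign under the 10 alternatives in pseudocount, filter, scaling, covariate and libraries fitted (9 for Slc37a1, which a filter of 5 FPKM left out). Their calls held under 8 of 10 for Atp1b1, 8 for Ctse, 6 for Atp5sl, 5 of 9 for Slc37a1, 3 for Mreg and 5 for Slc25a24, and the highest limma adjusted p among them were 0.271, 0.248, 0.244, 0.244, 0.244 and 0.244. When the 6 libraries were fitted alone, none of the 6 genes was called (limma adjusted p from 0.112 for Atp1b1 to 0.248 for Ctse).

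**Figure D1:**
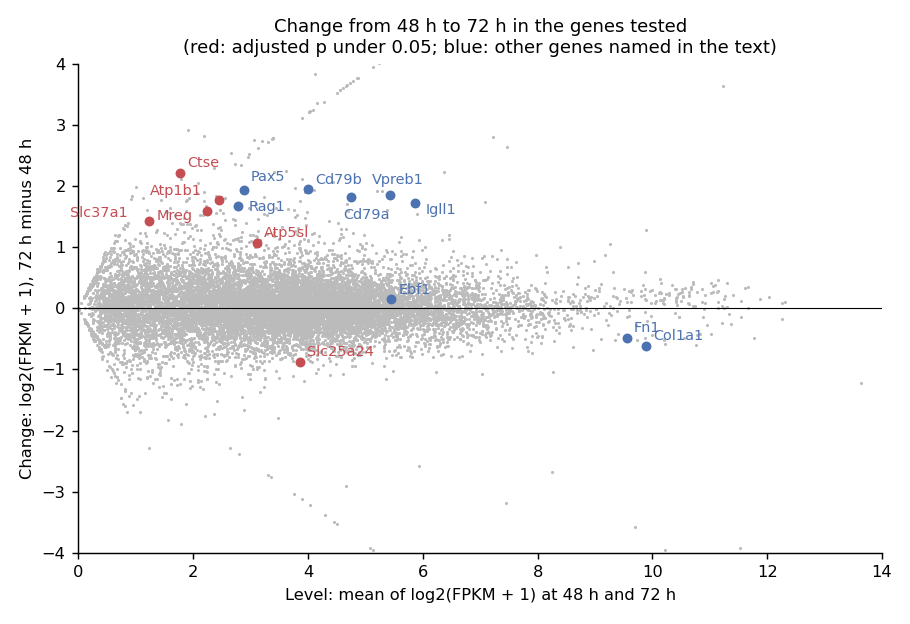
Change from 48 h to 72 h (log2(FPKM + 1), 72 h minus 48 h) against mean level for the 13907 genes tested, each a grey point; 32 genes lie outside the drawn range. The 6 genes with a limma adjusted p under 0.05 are red, and 9 other genes of the text are blue. The blue genes of the B lineage, apart from Ebf1, lie within the range of the red genes above 0. Fn1 and Col1a1, at a high level, lie below 0, as does the red gene Slc25a24.

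Several B-lineage genes had differences as large as those of the called genes, and in this fit no tested gene of the B-lineage lists passed the adjusted threshold. The fit had no block for replicate number or library-code run, and fits with such a block called several of these genes (see the closing section). Pax5 stood at 2.34, 3.65 and 2.24 FPKM in the 48 h libraries and at 11.7, 17.6 and 11.0 FPKM in the 72 h libraries. Every 72 h value was far above the highest 48 h value. The means were 2.74 ± 0.786 and 13.4 ± 3.64 FPKM (SD, n = 3), 4.90-fold apart, and the difference was 1.94 ± 0.44 (log2, SE; limma adjusted p = 0.0635). Within runs it was 1.93, 2.00 and 1.89. With a pseudocount of 5 in place of 1, Pax5 was called (limma adjusted p = 0.0137), as were Blnk (0.00487), Cd79a (0.00791), Cd79b (0.00328), Vpreb1 (0.0477) and Rag1 (0.0496). For Pax5 the adjusted p ran from 0.0137 to 0.352 over 10 alternatives in scaling, filter, pseudocount and samples, with that pseudocount the only one under 0.05, and from 0.0714 to 0.415 with 1 library left out. These 10 do not include the 3 fits with a block, all of which called Pax5 (limma adjusted p from 0.0113 to 0.0138).

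Ebf1 gave a different picture. It was at 30.3, 47.4 and 44.4 FPKM at 48 h and 37.2, 42.3 and 55.8 FPKM at 72 h. The libraries of the 2 times overlapped, with replicate 2 lower at 72 h than at 48 h. The difference was 0.15 (limma 95% interval -0.51 to 0.81, adjusted p = 0.911). Tcf3, which encodes E2A, was at 60.2, 71.0 and 63.9 FPKM at 48 h and 71.3, 69.3 and 93.8 at 72 h, a difference of 0.25 (interval -0.01 to 0.51, adjusted p = 0.456). Foxo1 was at 6.30, 6.85 and 10.2 FPKM at 48 h and 6.29, 9.66 and 7.79 at 72 h, a difference of 0.03 (interval -0.44 to 0.50, adjusted p = 0.993). With the blood-cell scaling, which put the median of all genes at -0.60, the differences of Ebf1, Tcf3 and Foxo1 were -0.56, -0.47 and -0.63, near that common shift. The sign of Foxo1 was also negative after quantile normalization, median-ratio scaling and removal of small RNA genes. Pou2af1, a coactivator of octamer factors, had overlapping libraries and a difference of 0.84 (interval -0.08 to 1.76, adjusted p = 0.485), and Lef1, a factor of pro-B cells, one of 0.70 (interval -0.32 to 1.73, adjusted p = 0.624).

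Of the 20 B-lineage transcription factors listed, 19 were tested and none was called (background 0.036% higher). The libraries of 9 were apart in the higher direction and of 0 in the lower, that is 47.4% against 8.69% of all genes tested. The median difference of the list was 0.70, against 0.02 for all genes, and within runs it was 0.56, 0.62 and 0.55. With the blood-cell scaling the list's median was 0.15, against -0.60 for all genes. The following genes of the list were singled out after their values were seen. Irf8, which acts with PU.1 in B and myeloid cells, was at 9.55, 12.8 and 4.57 FPKM at 48 h and 24.5, 28.1 and 17.5 at 72 h (limma adjusted p = 0.0778). Bcl11a, needed for the earliest B progenitors, was at 13.8, 8.55 and 7.57 FPKM at 48 h and 21.3, 23.0 and 22.0 at 72 h (adjusted p = 0.0901). Both had all 72 h libraries above all 48 h libraries, as did Spib, an Ets factor, at a lower level (2.12, 0.851 and 0.290 and 9.09, 2.19 and 3.95 FPKM, adjusted p = 0.198). Tcf4 and Tcf12, the other E-protein genes, had overlapping libraries, with means of 8.12 and 35.3 FPKM at 48 h and 8.17 and 35.2 FPKM at 72 h.

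The surrogate light chain genes Igll1 and Vpreb1 had higher mean levels, on the length-scaled FPKM, than Cd79a and Cd79b at both times. Igll1 was at 34.1, 40.7 and 19.1 FPKM at 48 h and 126, 109 and 75.3 FPKM at 72 h. Vpreb1 was at 18.0, 33.1 and 14.6 FPKM at 48 h and 87.4, 98.5 and 54.2 FPKM at 72 h. In both genes replicate 3 was the lowest library at each time, and the 72 h libraries were above all 48 h libraries. The means were 3.31-fold apart for Igll1 (1.73 ± 0.59, log2, SE; limma adjusted p = 0.258) and 3.65-fold for Vpreb1 (1.86 ± 0.53, adjusted p = 0.164). Within runs the differences were 1.85, 1.41 and 1.92 for Igll1 and 2.21, 1.54 and 1.82 for Vpreb1. Vpreb2 is a near-identical copy of Vpreb1, and how the counting divided fragments between them is not given, so both values are uncertain. Vpreb2 had 27.9, 21.2 and 9.99 FPKM at 48 h and 76.6, 89.7 and 52.9 at 72 h, also without overlap. Vpreb3, a related gene picked after its values were seen, was at 1.97, 3.68 and 0 FPKM at 48 h and 11.8, 14.2 and 12.8 at 72 h (2.53 ± 0.58, adjusted p = 0.0635). Its 72 h libraries were close together, and 48 h replicate 3 was listed at 0.

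The signalling chains were also apart. Cd79a was at 15.3, 15.0 and 9.34 FPKM at 48 h and 57.1, 56.1 and 34.8 FPKM at 72 h, and the differences within runs, 1.83, 1.84 and 1.79, were almost equal. Cd79b was at 7.09, 10.3 and 4.52 FPKM at 48 h and 29.9, 27.1 and 32.5 FPKM at 72 h. The lowest 72 h library of each gene was over 2 times the highest 48 h library, and the limma adjusted p was 0.08 for Cd79a (1.82 ± 0.45, log2, SE) and 0.0712 for Cd79b (1.95 ± 0.45). Across the surface list, 18 of 20 genes were tested and none was called. The libraries of 11 were apart in the higher direction (61.1%, against 8.69% of all genes) and of 1, Cd24a, in the lower. The median difference was 1.01 in the fit, 1.00, 0.97 and 1.60 within runs and 0.60 with the blood-cell scaling. Cd24a, a surface glycoprotein of immature cells and many others, had 180.2, 197 and 235 FPKM at 48 h and 157, 179 and 150.2 at 72 h (adjusted p = 0.55). Ms4a1, the CD20 gene of later B cells, was listed at 0 in all 6 libraries. Summed over the 20 genes, the list was at 411, 441 and 348 FPKM at 48 h and 772, 786 and 586 FPKM at 72 h. These sums did not overlap, and the exact two-sided permutation p of 0.1 is the smallest that 3 against 3 libraries can give.

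**Figure D2:**
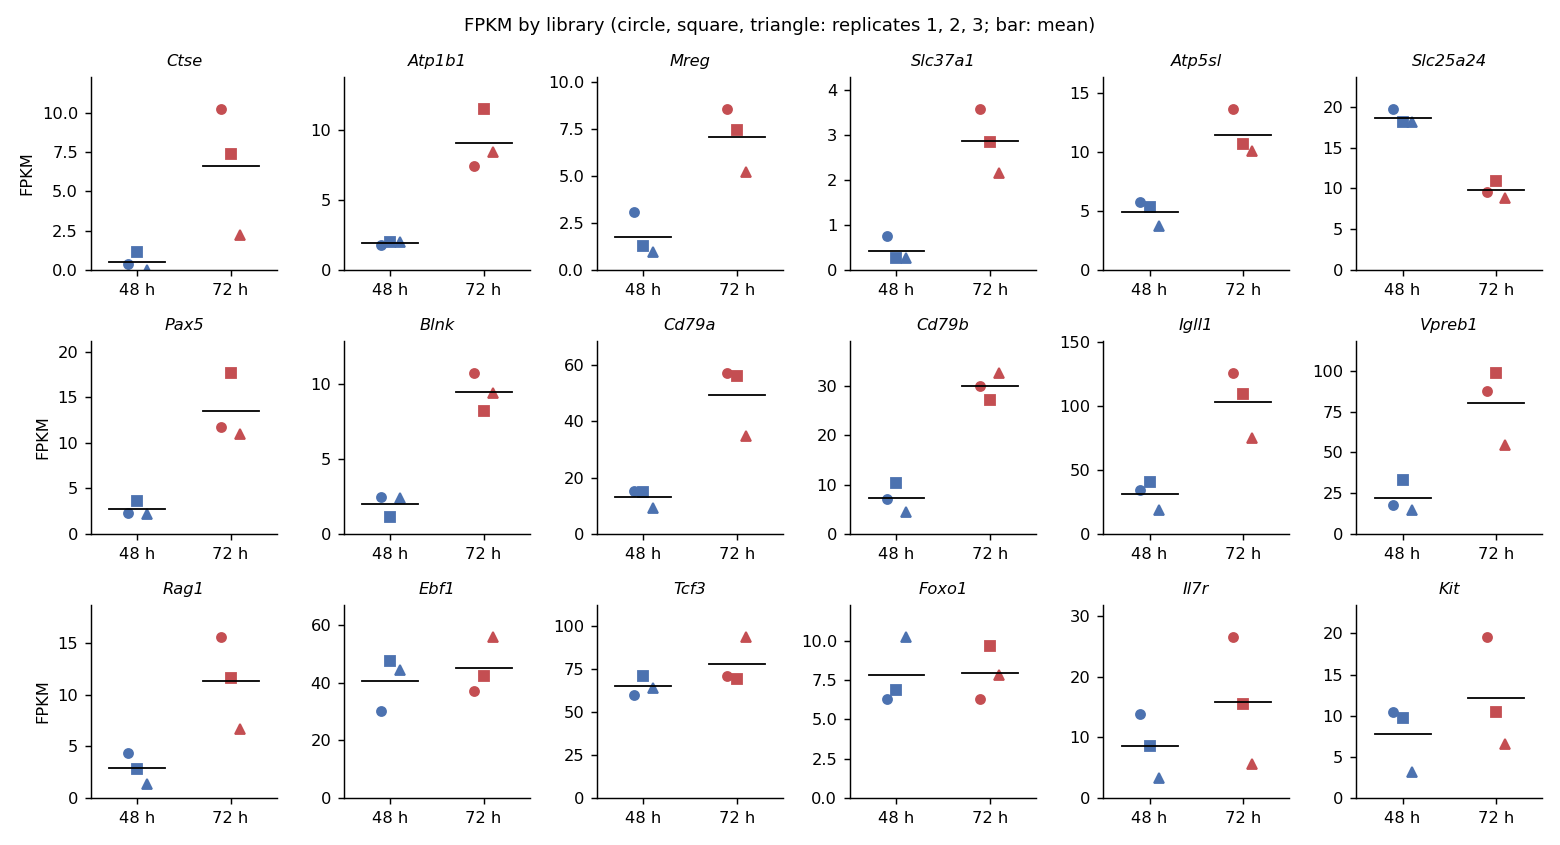
FPKM of 18 genes in each of the 6 libraries (linear axis from 0), with 48 h in blue, 72 h in red and a bar at the mean. The upper row holds the 6 called genes; Pax5, Blnk, Cd79a, Cd79b, Igll1, Vpreb1 and Rag1 show 72 h libraries above all 48 h libraries, while Ebf1, Tcf3, Foxo1, Il7r and Kit overlap.

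Downstream of the receptor, Blnk was at 2.48, 1.16 and 2.37 FPKM at 48 h and 10.7, 8.23 and 9.43 FPKM at 72 h. No 48 h library reached 3 FPKM and no 72 h library was under 8, and the difference was 1.83 ± 0.41 (log2, SE; limma adjusted p = 0.0635) and 1.75, 2.09 and 1.63 within runs. All 15 genes of the pre-B receptor signalling list were tested, and none was called. Libraries were apart in the higher direction for 4 (26.7%, against 8.69% of all genes). The median of the list was 0.40, and 0.07 with the blood-cell scaling, against -0.60 for all genes. The 4 were Blnk, Plcg2, a phospholipase, Pik3cd, a lipid kinase, and Pik3ap1, its adaptor, with differences of 1.83, 0.87, 1.03 and 1.03 (adjusted p from 0.0635 to 0.234). They were named after their values were seen. Blk, Bank1 and Prkcb, also of this list, had means under 1 FPKM at both times.

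Among the genes of V(D)J recombination, Rag1 was at 4.36, 2.83 and 1.39 FPKM at 48 h and 15.6, 11.6 and 6.71 FPKM at 72 h. Each 72 h library was above all 48 h libraries, the order of replicates was the same at both times, and the difference was 1.68 ± 0.41 (log2, SE; limma adjusted p = 0.0766) and 1.63, 1.72 and 1.69 within runs. Rag2 was at 5.65, 2.53 and 0.705 FPKM at 48 h and 8.83, 6.66 and 3.73 FPKM at 72 h, with overlap between the times (1.05 ± 0.40, adjusted p = 0.308). Dntt, the polymerase that adds untemplated bases, was listed at 0 in all libraries but 72 h replicate 1, where it had 0.839 FPKM. Of the 10 V(D)J recombination genes, 2 had libraries apart in the higher direction (20.0%, against 8.69% of all genes), Rag1 and Xrcc6. The median of the list was 0.20 in the fit and 0.53, 0.18 and -0.14 within runs. With the blood-cell scaling it was -0.55, against -0.60 for all genes. Xrcc6, an end-joining gene active in all cells, had a difference of 0.27 (adjusted p = 0.568).

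Of the cytokine receptors, Il7r, the receptor chain for IL-7, was at 13.8, 8.53 and 3.24 FPKM at 48 h and 26.6, 15.5 and 5.65 FPKM at 72 h. Replicate 1 was the highest and replicate 3 the lowest at both times, and the spread between replicates was larger than the step (0.78, limma 95% interval -0.19 to 1.75, adjusted p = 0.548). Flt3 was at 31.3, 24.4 and 10.8 FPKM at 48 h and 50.3, 32.6 and 25.8 at 72 h, with a difference of 0.75 (interval 0.06 to 1.45, adjusted p = 0.406). Kit, the SCF receptor, was at 10.4, 9.74 and 3.17 FPKM at 48 h and 19.6, 10.4 and 6.51 at 72 h, with a difference of 0.59 (interval -0.16 to 1.35, adjusted p = 0.554) that is -0.04 with the blood-cell scaling. That scaling put the median of all genes at -0.60. Among 11 STAT5 target genes, which respond to IL-7, 5 had libraries apart in the higher direction (45.5%, against 8.69% of all genes) and none was called. The median of the list was 0.59 in the fit. With the blood-cell scaling it was -0.08, against -0.60 for all genes. Those 5, named after their values were seen, were Cish, Pim1, Osm, Ccnd2 and Ccnd3. Pim1, a survival kinase, was at 81.4, 73.3 and 25.1 FPKM at 48 h and 169, 112 and 99.3 at 72 h (adjusted p = 0.181). Myc was at 46.8, 67.4 and 38.6 FPKM at 48 h and 61.7, 88.7 and 92.9 at 72 h, with overlapping libraries and a difference of 0.68 (interval 0.13 to 1.22, adjusted p = 0.33) that is -0.04 with the blood-cell scaling.

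The inhibitors of E proteins overlapped between the times. Id3 was at 120.2, 171 and 196 FPKM at 48 h and 70.0, 113 and 195 FPKM at 72 h, and fragments of the cellular gene cannot be told from those of the Id3 fusion. Id1 was at 85.3, 109.8 and 109 FPKM at 48 h and 47.6, 49.1 and 120.2 at 72 h. Replicates 1 and 2 of both genes were lower at 72 h, and replicate 3 was nearly equal for Id3 and higher for Id1. Within runs the differences were -0.77, -0.59 and -0.01 for Id3 (adjusted p = 0.676) and -0.83, -1.15 and 0.14 for Id1 (adjusted p = 0.5). Id2 was at 32.3, 22.6 and 16.1 FPKM at 48 h and 37.4, 25.8 and 34.2 at 72 h, a difference of 0.48 (adjusted p = 0.474) that is -0.22 with the blood-cell scaling. That scaling put the median of all genes at -0.60. None of the 7 E and Id protein genes was called or apart in either direction. Id4, named after its values were seen, had the lowest difference of them, -0.95, with a limma p under 0.05 before adjustment.

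Of genes of other fates, Gata3, a T-lineage factor, was at 6.76, 5.59 and 4.98 FPKM at 48 h and 6.76, 6.58 and 2.54 at 72 h (-0.18, adjusted p = 0.912). Tcf7, a T-lineage and progenitor factor, ranged from 7.79 to 44.6 FPKM at 48 h and from 16.0 to 82.5 FPKM at 72 h, with replicate 1 far above the others at both times (0.72, adjusted p = 0.76). Cd3e and Bcl11b, which mark T cells, were listed at 0 in all 6 libraries. Of 11 T-lineage genes tested, 1 was apart, in the higher direction (9.09%, against 8.69% of all genes). Of 14 myeloid genes tested, 2 were apart in each direction (14.3%). The higher ones, Mpo and Prtn3, proteins of neutrophil granules named after their values were seen, had means of 0.419 and 1.63 FPKM at 48 h and 4.15 and 9.57 FPKM at 72 h (adjusted p = 0.354 and 0.254). The lower ones, Lyz1, a lysozyme gene, and Cd68, a macrophage glycoprotein, also named after their values were seen, had means of 14.8 and 11.6 FPKM at 48 h and 8.70 and 8.00 FPKM at 72 h (adjusted p = 0.624 and 0.503). Ctsg, S100a9 and Ms4a3, also of granulocytes, were listed at 0 in all 6 libraries. Among 20 stem and multipotent progenitor genes tested, 4 were apart in the higher direction (20.0%) and 3 in the lower (15.0%, against 6.92%). The median difference was 0.48 for the T-lineage, 0.25 for the myeloid and 0.37 for the stem and progenitor list. With the blood-cell scaling these medians were 0.01, -0.27 and -0.26, against -0.60 for all genes. Cd34, a progenitor surface gene, was at 152, 75.6 and 63.4 FPKM at 48 h and 184, 82.1 and 85.5 at 72 h (0.27, adjusted p = 0.825), with -0.45 under the blood-cell scaling.

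Feeder and blood-cell transcripts differed in opposite directions beside the B-lineage genes, and no gene of either list was called. The 28 stromal feeder genes, most of them for matrix and contractile proteins, summed to 7512, 8550 and 10818 FPKM at 48 h and to 4393, 6362 and 8091 FPKM at 72 h. The 20 general blood-cell genes, such as Coro1a and Laptm5, summed to 1106, 950.0 and 442 FPKM at 48 h and to 1765, 1314 and 1036 FPKM at 72 h. At both times replicate 3 was the highest in the stromal sum and the lowest in the other, and the libraries of the 2 times overlapped in both sums. The stromal sum was 8960 ± 1690 FPKM at 48 h and 6282 ± 1850 at 72 h (SD, n = 3; exact two-sided permutation p = 0.2). The blood-cell sum was 833 ± 347 and 1372 ± 368 FPKM (SD, n = 3; exact two-sided permutation p = 0.2). Within runs, the ratio of 72 h to 48 h was 0.585, 0.744 and 0.748 for the stromal sum and 1.60, 1.38 and 2.34 for the blood-cell sum. In bulk RNA, fewer cells of a type and less RNA per cell cannot be told apart.

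**Figure D3:**
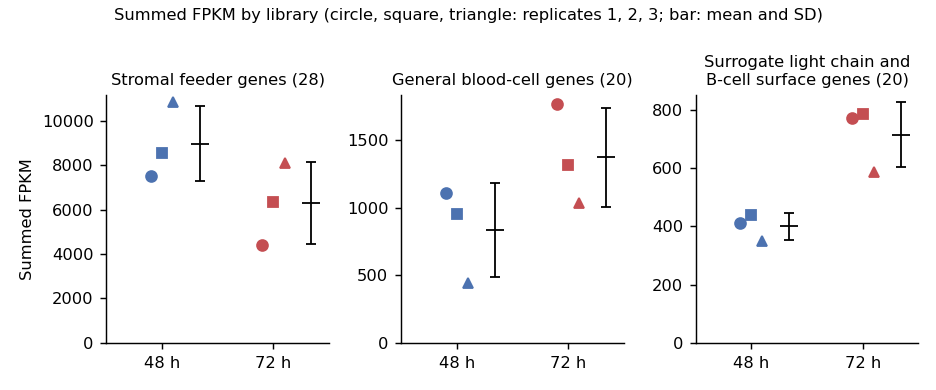
Summed FPKM of 28 stromal feeder genes, 20 general blood-cell genes and 20 surrogate light chain and B-cell surface genes in each library (linear axes from 0), with the mean and SD beside the points. The stromal and blood-cell sums overlap between 48 h and 72 h, and the B-cell surface sums, 348 to 441 against 586 to 786, do not.

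All 26 tested stromal genes had a negative difference, none was called, and 10 (38.5%, against 6.92% of all genes) had libraries apart in the lower direction. The median was -0.52. Dcn and Lum, matrix genes of many fibroblasts, were listed at 0. Acta2, smooth muscle actin, picked after its values were seen, was at 356, 461 and 490.3 FPKM at 48 h and 151, 216 and 275 FPKM at 72 h, without overlap (adjusted p = 0.234). Col1a1 was at 789.7, 999 and 1637 FPKM at 48 h and 413, 724 and 1214 at 72 h, and Fn1, fibronectin, at 797, 799 and 1021 and 426, 679 and 825 FPKM. Both overlapped, with differences of -0.61 (interval -1.36 to 0.14, adjusted p = 0.545) and -0.48 (interval -1.12 to 0.16, adjusted p = 0.578). All 20 blood-cell genes had a positive difference, none was called, and the median was 0.73. Libraries were apart in the higher direction for 5 (25.0%, against 8.69% of all genes). The surface list's median of 1.01 is thus above that of the blood-cell list, and the B-lineage factors' median of 0.70 is close to it. With the stromal mean as a covariate in the limma fit, 3 genes were called (Atp1b1, Ctse and Klri1, the last a lectin-like receptor gene named after its values were seen), and the difference of Pax5 was 1.74 (adjusted p = 0.254). With the blood-cell scaling the difference was 1.35 for Pax5 (adjusted p = 0.0519), 1.26 for Blnk (0.059), 1.13 for Cd79a (0.0626), 1.13 for Rag1 (0.0507) and 1.02 for Igll1 (0.14). Of the genes that rose, Atp1b1, Ctse, Mreg and Slc37a1 stayed called under that scaling, with differences of 1.21, 2.00, 1.10 and 1.14.

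Proliferation and metabolism lists had small medians. For the counts of genes apart that follow, the share over all genes tested was 8.69% higher and 6.92% lower. Mki67, a marker of cycling cells, was at 45.4, 32.9 and 38.8 FPKM at 48 h and 58.0, 45.5 and 41.1 at 72 h (0.30, interval -0.06 to 0.65, adjusted p = 0.526), and -0.42 with the blood-cell scaling. The 20 DNA replication genes had a median of 0.16, with 3 apart higher (15.0%) and 1 lower, and the 20 mitosis genes one of -0.02, with 0 apart higher and 3 lower (15.0%). All 13 glycolysis genes had a positive difference, with a median of 0.23 and 5 apart higher (38.5%). Ldha, lactate dehydrogenase, was at 843, 773 and 769 FPKM at 48 h and 1008, 1096 and 1004 at 72 h (adjusted p = 0.448). The glycolysis median was -0.43 with the blood-cell scaling, which is above the -0.60 of all genes. The 13 tested genes of the MHC and antigen presentation list had a median of 0.78 with 4 apart higher (30.8%), and within runs 0.56, 0.27 and 1.27. H2-K1, a class I heavy chain, was at 447, 567 and 292 FPKM at 48 h and 696, 774 and 829.6 at 72 h (adjusted p = 0.281), with the largest difference in replicate 3. The 15 interferon response genes all had a positive difference (median 0.42), of which 1 was apart, and the run medians of 0.07, 0.19 and 1.10 were largest in replicate 3. With the blood-cell scaling the interferon median was -0.30 and the MHC median 0.05. The other lists, of 3 to 20 tested genes each, had medians from -0.14 (erythroid and megakaryocyte genes, 0 of 6 apart higher and 2 lower) to 0.40 (NK and innate lymphoid genes, 1 of 12 apart higher). Among them were the IL-7 receptor, JAK and STAT genes (0.14), the BCL2 family (0.25), mast cell and basophil genes (-0.10), immediate-early genes (-0.08), FOXO targets (-0.12), ribosome biogenesis (0.09), sterol synthesis (0.03) and the amino acid and unfolded protein response (-0.02). No member of any of the 26 lists was called. Ldha and H2-K1 were picked after their values were seen.

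**Figure D4:**
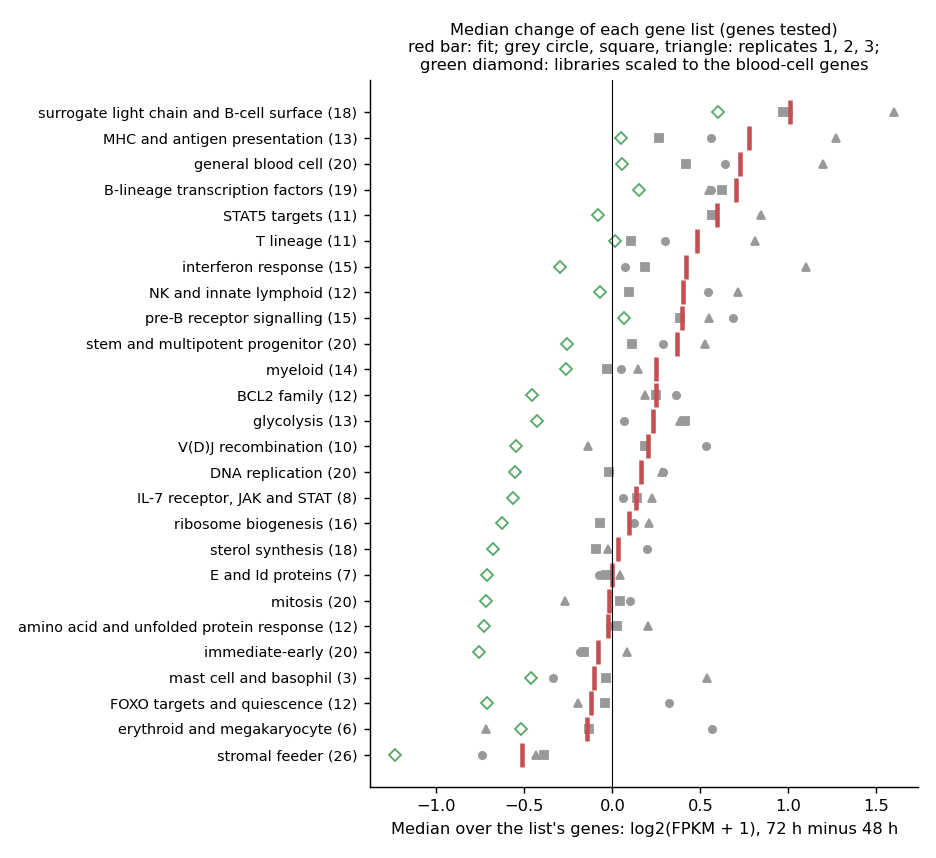
Median difference, 72 h minus 48 h in log2(FPKM + 1), of 26 gene lists (number of genes tested in brackets), with the fit in red, the difference within each run in grey and the fit with libraries scaled to blood-cell genes in green. The surrogate light chain and B-cell surface list is the highest in the fit (1.01) and with the scaling (0.60), and the stromal feeder list the lowest in both (-0.52 and -1.24).

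Neighbouring steps place these values in the course. They share the 48 h or the 72 h libraries with this step, so their values are set side by side only. Replicates 1 and 2 at 24 h fall in other runs of library codes than at 48 h. For those replicates a change from 24 h to 48 h cannot be told apart from a difference between runs. Between 24 h and 48 h 8 genes were called (0.0575%), between 72 h and 96 h 22 (0.158%) and between 96 h and 144 h 2 (0.0144%). The courses below start at 24 h, which is not the start of the series. At 0 h the means were 13.7 FPKM for Pax5, 13.3 for Ebf1, 30.3 for Igll1 and 16.2 for Cd79a. Pax5 was thus near its 72 h mean at 0 h, and Ebf1, Igll1 and Cd79a were below theirs. Over the times 24, 48, 72, 96 and 144 h, Pax5 had means of 2.46, 2.74, 13.4, 26.2 and 33.9 FPKM. Its log2 difference was 0.23 from 24 h to 48 h, 1.94 from 48 h to 72 h and 0.91 from 72 h to 96 h. Ebf1 had 24.1, 40.7, 45.1, 49.8 and 64.1 FPKM at these times. Its larger difference, 0.72 (adjusted p = 0.4), lay between 24 h and 48 h. Igll1 had 7.71, 31.3, 104, 229 and 389.7 FPKM, and its difference was 2.41 from 24 h to 48 h and 1.73 from 48 h to 72 h. Cd79a, at 5.09, 13.2, 49.4, 129 and 198 FPKM, had a higher mean at each later time. Blnk and Rag1 went from 1.15 and 1.56 FPKM at 24 h to 40.3 and 49.5 FPKM at 144 h. Pou2af1, which overlapped across the step from 48 h to 72 h, was at 4.26 FPKM at 72 h and 19.9 at 96 h, where the limma adjusted p was 0.0357.

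The called genes followed different courses. Atp1b1 had means of 0.445, 1.92, 9.11, 30.3 and 58.6 FPKM from 24 h to 144 h, and was also called from 72 h to 96 h (1.64, limma adjusted p = 0.00625). Ctse had 0.498, 0.518, 6.61, 11.4 and 21.9 FPKM, so that 24 h and 48 h were alike and each later mean was higher. Slc37a1 was at 0.809, 0.430, 2.85, 3.11 and 2.82 FPKM, and its means from 72 h on lay within 0.3 FPKM of each other. Slc25a24 was at 24.0, 18.7, 9.78, 10.6 and 8.12 FPKM. Its difference was -0.33 from 24 h to 48 h (adjusted p = 0.469) and 0.10 from 72 h to 96 h (adjusted p = 0.821). The stromal sum had means of 9324, 8960, 6282, 3512 and 2713 FPKM at the 5 times from 24 h to 144 h, and the blood-cell sum 692, 833, 1372, 1996 and 2126 FPKM. At 0 h the stromal mean was 1442 FPKM and the blood-cell mean 2789 FPKM.

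**Figure D5:**
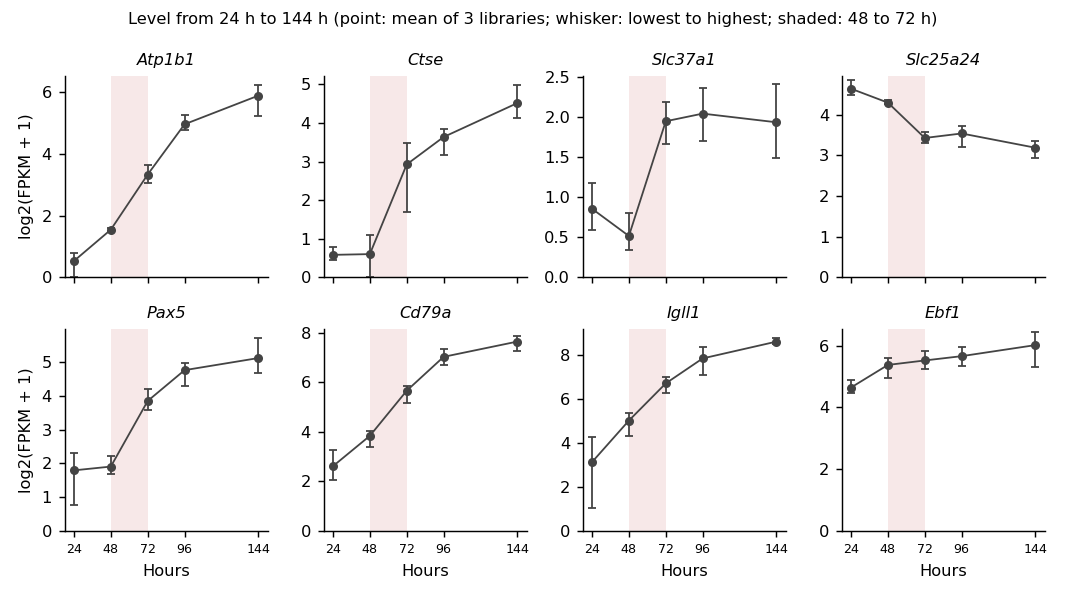
Level of 8 genes from 24 h to 144 h in log2(FPKM + 1), with the mean of 3 libraries as points, whiskers from the lowest to the highest library and the step from 48 h to 72 h shaded. Among the drawn segments the shaded one is the steepest for all 8 genes but Igll1 and Ebf1, which are steepest from 24 h to 48 h. Between those times replicates 1 and 2 change library-code run. Ebf1 is nearly level in the shaded step (40.7 and 45.1 FPKM). Times before 24 h are not drawn.

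The step was also compared with that from 96 h to 144 h, which shares no library with it but lasts longer. No gene had a difference between the 2 changes at an adjusted p under 0.05 in limma (770 genes, 5.54%, at an unadjusted p under 0.05). For Slc37a1 the difference between the changes was 1.57 ± 0.38 (SE; adjusted p = 0.442), for Mreg 1.37 ± 0.45 (0.637) and for Pax5 1.64 ± 0.62 (0.846). For Ebf1 it was -0.16 ± 0.46 (0.982). The number called was 1 without 48 h replicate 2, 72 h replicate 1 or 96 h replicate 2, 2 without 96 h replicate 3 and 3 without 144 h replicate 2. It was 1 with the stromal mean as covariate and 9 with a block by library-code run in all libraries. With a block by replicate number in the 12 libraries of 48 h to 144 h it was 0. The fit without a block therefore shows no gene to be particular to the step from 48 h to 72 h.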

How the data were processed

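Poly(A) RNA of the cultures was sequenced, and the authors deposited 1 table of FPKM values (labelled corrected, with no account of the correction in the sources used here), with TopHat2 2.1.0, Cufflinks 2.1.1 and mm9 named in the submitters' processing notes. FPKM values are not counts, so no count test was run and depth is unknown. Of 23234 genes, the 13907 at 1 FPKM or more in at least 3 libraries were fitted as log2(FPKM + 1) with limma 3.58.1 in R 4.3.3, with 1 mean per time point over the 42 libraries of the 14 triplicated times and a trend on mean level. p-values were Benjamini-Hochberg adjusted over all genes tested and called under 0.05. Fold changes on this scale are smaller than those of the FPKM of low genes. On simulated data of this comparison with 13907 genes, 65 of 100 genes changed 2-fold and 96 of 100 changed 4-fold were called, with 8 false calls. The changed genes were drawn from those with a fitted mean over 3 in log2(FPKM + 1), and the noise was independent between libraries. These shares therefore do not cover genes of lower level or differences between runs.

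Genes named were the called ones whose libraries did not overlap, up to 12 per direction, up to 4 called members of each of 26 lists and a fixed set of 28 genes, of which 1 is not reported here. Others are said to be picked after their values were seen. The members and lists were chosen with earlier results of these data known. Alternatives changed the pseudocount, filter, scaling, covariate, block and libraries. Promoters are from RefSeq (GRCm38.p6), matched by symbol, and no mm9 coordinates were used.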

Additional observations from a re-analysis of the deposited data

How the results depend on the processing

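The count of 6 genes (5 higher, 1 lower) was recomputed with 1 choice changed at a time. It was 0 with a pseudocount of 0.1 (0 higher, 0 lower) and 41 with one of 5 (34 higher, 7 lower), 8 without a filter (6 and 2) and 4 with a filter of 5 FPKM (3 and 1). It was 19 after quantile normalization (12 and 7), 4 after median-ratio scaling (4 and 0), 666 with libraries scaled to the blood-cell genes (15 and 651), 3 with small RNA genes removed (3 and 0), 3 with the stromal mean as covariate (3 and 0), 1 with the 6 libraries fitted alone (1 and 0, none of the 6 genes among them) and 5 with a 2-fold minimum (5 and 0). With 1 library left out it ran from 0 to 14 (0 to 13 higher, 0 to 1 lower). The count of genes whose change differed from that of 96 h to 144 h was 0, but 1 with the stromal covariate and 0 to 3 with 1 library left out. Why these counts differ was not tested.

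The replicate number, or in all libraries the run of library codes, was tried as a block. Deviations from the time means correlated at 0.209, 0.0133 and 0.137 between same-numbered libraries, so not every pair exceeded 0.1 and the numbers are not taken to pair the samples. Each 48 h library did correlate best with its own number at 72 h, a hint from the data and not the design. The block by run gave 144 calls (114 higher, 30 lower) in all libraries, and 9 in place of 0 for the difference between the steps. The block by replicate number gave 24 calls (23 and 1) in the 12 libraries of 48 h to 144 h and 54 (48 and 6) in the 6 libraries alone. Pax5, Blnk, Cd79a, Cd79b, Igll1 and Vpreb1 were called in all 3 fits with a block, and Rag1 in 2 of 3. Of the 6 genes called without a block, all 6 were called with the block in all libraries, Atp1b1 alone in the 12 libraries (adjusted p by limma 0.075 for Ctse, 0.0885 for Mreg and Slc37a1, 0.0973 for Atp5sl and 0.107 for Slc25a24), and Atp1b1 and Ctse in the 6 libraries.

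Some genes that were not called had a log2 difference of the other sign under an alternative. It was negative for Foxo1 after quantile normalization (-0.0094), median-ratio scaling (-0.00017) and removal of small RNA genes (-0.025). With the blood-cell scaling, which put the median of all genes at -0.60, it was -0.56 for Ebf1, -0.47 for Tcf3, -0.63 for Foxo1, -0.040 for Kit, -0.45 for Cd34, -0.22 for Id2, -0.037 for Myc and -0.42 for Mki67. With the stromal covariate it was -0.013 for Cd34, 0.028 for Col1a1 and 0.056 for Fn1. With 1 library left out it ran from -0.044 to 0.28 for Ebf1, -0.11 to 0.22 for Foxo1, 0 to 0.44 for Dntt, -0.11 to 0.64 for Cd34, -0.012 to 1.38 for Tcf7 and -0.38 to 0.19 for Gata3. For these, the cause was not tested. The sums without 1 library gave differences from -3582 to -1734 FPKM for the stromal genes and 342 to 707 FPKM for the blood-cell genes. Depth is unknown, so what low counts limit cannot be given.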
